A study of Mus musculus with 2 samples.

Results

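The neurotrophins and their receptors were described in the cochlea of mice after noise: the ligand genes Bdnf, Ntf3, Ntf5 and Gdnf and the receptor genes Ntrk2, Ntrk3, Ngfr and Ret. Members were the probes that are not controls and whose gene name on the array equals one of these 8 symbols. They came to 13 probes, 5 for ligands and 8 for receptors, of 56605 probes carrying 37074 names in all. Total RNA of cochlear tissue from female C57BL/6 mice aged 7 weeks was hybridised to 1-colour Agilent expression arrays, 1 array per group. The noise group was exposed to noise for 2 hours and its tissue was taken 3 hours later. The other group is labelled as baseline, without noise exposure. The labels do not give the number of mice or cochleae behind an array. With 1 array per group there was no replicate, so no p-value was computed, a size rule of at least 2-fold took its place, and every difference below is between 2 samples.

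Neurotrophins are secreted growth factors that keep neurons alive and shape their synapses. Brain-derived neurotrophic factor (Bdnf) and neurotrophin-4 (Ntf5, also called Ntf4) bind the receptor tyrosine kinase TrkB (Ntrk2), neurotrophin-3 (Ntf3) binds TrkC (Ntrk3), and all of them bind the low-affinity receptor p75NTR (Ngfr). Glial cell line-derived neurotrophic factor (Gdnf) belongs to another ligand family and signals through the kinase Ret together with a co-receptor. In the cochlea, hair cells and supporting cells are known sources of Bdnf and Ntf3, and spiral ganglion neurons carry TrkB and TrkC. Both Trk genes also make truncated receptors that lack the kinase, and the truncated TrkB form is abundant in astrocytes of the brain.

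Measured probes were those that Feature Extraction, the scanner's software, marked on each of the arrays as well above background. This held for 12 of the 13 member probes, and for at least 1 probe of every member, among 41659 measured probes and 26533 measured genes. The arrays were alike in the share of probes well above background, 75.3% (noise) and 75.2% (baseline). Levels are given as the processed signal in percent of the array's own 75th percentile, which was 316 (noise) and 278 (baseline), and a log2 ratio is noise minus baseline on that scale. Levels of different probes are not comparable, since each probe binds with its own strength. The error beside a log2 ratio is the scanner software's own estimate for the 2 spots and covers the array, not the mice. Each member probe was printed once, so it had no repeat spots. A log2 ratio had a median SD of 0.071 over 293 repeated probes, nearly all of them bright.

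The 4 probes of Ntrk3, 1 of the 2 of Ntrk2 and 1 of the 2 of Gdnf are shown, because for these genes the reading depends on where the probe sits. They read 5′ to 3′ in the sense of the transcript, with the positions on mm9. Gene models on mm9 were not used here, so exon and untranslated-region positions are not given. Capitals mark the stop codon at the end of the probe for the truncated TrkC transcript.
Ntrk2 A_55_P2006792: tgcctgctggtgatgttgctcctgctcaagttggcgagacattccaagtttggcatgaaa
Ntrk3 A_55_P2931253: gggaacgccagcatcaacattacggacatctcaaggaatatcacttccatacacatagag
Ntrk3 A_52_P55706: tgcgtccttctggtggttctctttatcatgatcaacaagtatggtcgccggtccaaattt
Ntrk3 A_55_P2006808: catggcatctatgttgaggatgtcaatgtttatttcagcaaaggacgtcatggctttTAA
Ntrk3 A_66_P118329: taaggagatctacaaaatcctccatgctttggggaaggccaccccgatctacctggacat
Gdnf A_55_P2745662: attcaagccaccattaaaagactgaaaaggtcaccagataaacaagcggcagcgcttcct

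The shown Ntrk2 probe lies at chr13:58979563-58979622 on the plus strand, and the array design lists it for both full-length and truncated transcripts. The other Ntrk2 probe, A_51_P393454, lies 251 kb downstream at chr13:59230936-59230995 and is listed for full-length transcripts but not for the truncated one. Ntrk3 lies on the minus strand. Its first probe covers sequence from both ends of the interval chr7:85662370-85722471, so its 60 bases are split over the genome, and it is listed for both forms. The next, at chr7:85595783-85595842, is also listed for both. The probe at chr7:85447515-85447574 is listed for the truncated form and not the full-length one, and the last, at chr7:85337455-85337514, for the full-length form and not the truncated one. The Ntrk2 probe and the Ntrk3 probe A_52_P55706 both cover the part around the membrane, and at their best ungapped alignment 25 of 60 bases were identical (41.7%). The remaining probes lie at chr2:109566961-109567020 (Bdnf), chr6:126051431-126051490 (Ntf3), chr7:52671758-52671817 (Ntf5), chr15:7784398-7784457 and chr15:7787474-7787533 (Gdnf), chr11:95430211-95430270 (Ngfr) and chr6:118101791-118101850 (Ret). Over the 13 probes, GC content ran from 35.0% to 51.7%.

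No member was 2-fold higher or lower after noise: 0 of 8, against 1.86% of all measured genes past 2-fold in either direction (0.611% higher and 1.25% lower). Of the 12 measured member probes 0 passed 2-fold, against 1.88% of all measured probes (0.615% higher and 1.27% lower). The members' log2 ratios ran from -0.47 (Ngfr) to 0.44 (Gdnf). Below 0 lay 6 of the 8 members, with a median of -0.21 (1 of the 6, Ntrk3, was above 0 with spike-in scaling), beside 52.5% of all measured genes below 0 and a median of -0.01. All 8 lay inside the central 95% of measured genes, which ran from -0.77 to 0.63. A log2 ratio as far from 0 as that of Ngfr, or farther, was reached by 13.1% of all measured genes.

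**Figure D1:**
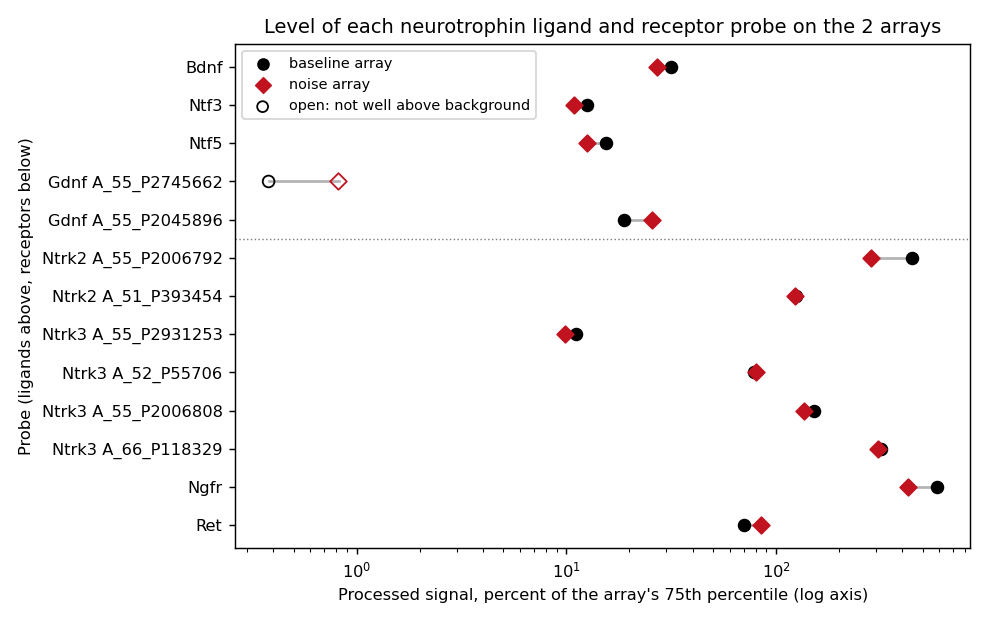
Processed signal of each of the 13 member probes on the baseline array (black circles) and the noise array (red diamonds), in percent of the array's 75th percentile on a log axis. Open symbols mark the Gdnf probe not measured in either group. The pairs lie close together, with the widest gap among measured probes for Ntrk2 A_55_P2006792 (447 at baseline and 283 after noise).

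Among the ligands, Bdnf, the main TrkB ligand, was at 27.1 after noise and 31.4 at baseline, a log2 ratio of -0.21 ± 0.21 (software error). Ntf3, the TrkC ligand, was at 10.9 and 12.5, a log2 ratio of -0.20 ± 0.22. Ntf5, the other TrkB ligand, was at 12.6 and 15.4, a log2 ratio of -0.29 ± 0.21. The levels of all 3 were lower on the noise array, by an amount close to the error of a single probe. Before scaling, the signals of these ligands were almost alike on the arrays: 85.5 and 87.4 for Bdnf, 34.3 and 34.7 for Ntf3, and 39.7 and 42.9 for Ntf5.

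Gdnf was the only ligand above 0. Its measured probe was at 25.7 after noise and 18.9 at baseline (processed signals of 81.3 and 52.6), 1.36-fold higher, a log2 ratio of 0.44 ± 0.21, at percentile 94.1 of measured genes. The other Gdnf probe, whose sequence is given above, lies 3.08 kb upstream. With signals of 2.59 and 1.06 it did not pass the background test in either group and gives no ratio. The Gdnf value depended on the handling of dim signal: it was 0.16 with a normexp background and 0.78 when dim probes were counted. It rests on 1 probe.

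**Figure D2:**
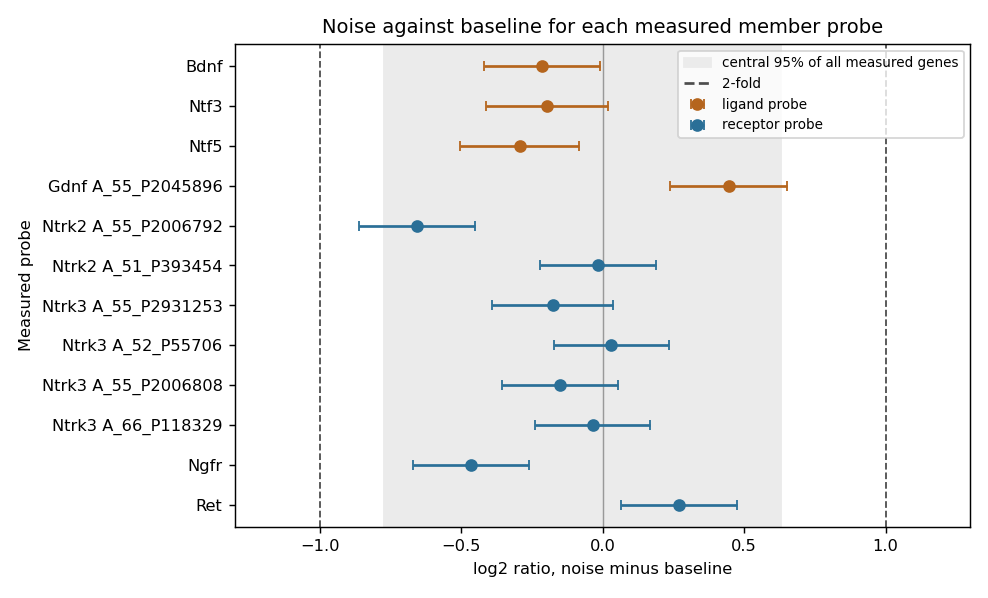
Log2 ratio, noise minus baseline, of each of the 12 measured member probes, ligands in brown and receptors in blue; bars are the scanner software's error. The grey band is the central 95% of all measured genes (-0.77 to 0.63) and dashed lines mark 2-fold, which no probe reaches.

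The receptor Ntrk2 had the widest difference among the member probes. Its probe for both receptor forms was at 283 after noise and 447 at baseline (processed signals of 895 and 1243), 1.58-fold lower, a log2 ratio of -0.66 ± 0.20. The probe for the full-length transcripts was at 123 and 124 (387 and 345 before scaling), a log2 ratio of -0.02 ± 0.20, which was above 0 with median scaling (0.01) and spike-in scaling (0.16). The 2 probes thus differed by 0.64 ± 0.29 in log2 ratio, a gap in which a constant rescaling of an array cancels. Of the 5621 genes with exactly 2 measured probes, 8.68% had a gap at least as wide, and their median gap was 0.21. As a gene, taken as the median of its probes, Ntrk2 had a log2 ratio of -0.34, and with its brightest probe alone -0.66.

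The 4 probes of Ntrk3 lay close to each other and to 0. From the first probe to the last along the gene, levels after noise and at baseline were 9.85 and 11.1, then 80.2 and 78.5, then 137 and 152, then 308 and 315. The log2 ratios were -0.18 ± 0.21, 0.03 ± 0.20, -0.15 ± 0.20 and -0.04 ± 0.20, none larger than its error. With spike-in scaling the third was at 0.02 and the fourth was also above 0. Their range of 0.21 was narrow: 90.4% of the 844 genes with 4 measured probes spread at least as widely. The probe for the full-length kinase form and that for the truncated form, the last and the third along the gene, differed by 0.12 ± 0.29. The gene's median was -0.09, and it was above 0 (0.08) with spike-in scaling, which moved the median of all genes from -0.01 to 0.16.

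**Figure D3:**
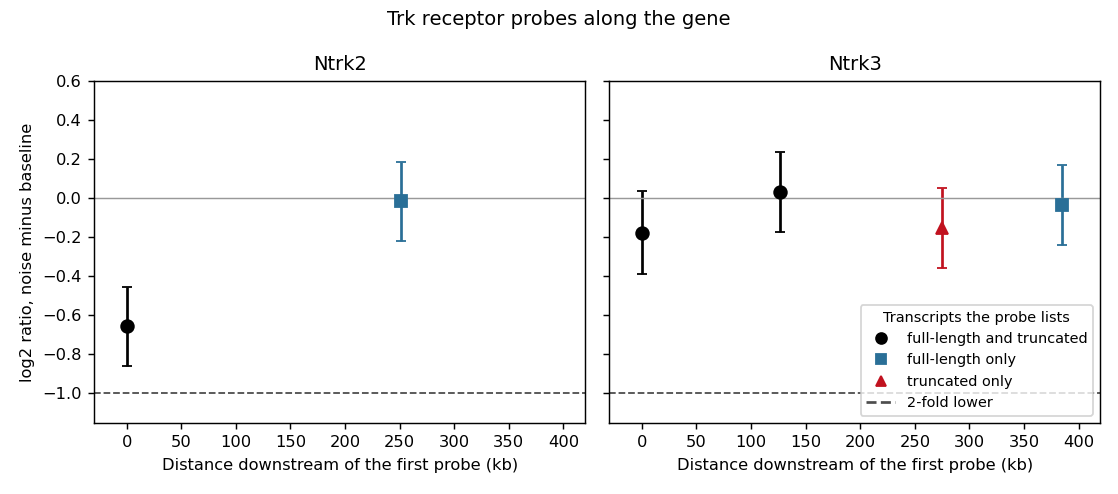
Log2 ratio of each Ntrk2 and Ntrk3 probe against its distance downstream of the gene's first probe in kb; bars are the scanner software's error, and colour and shape give the receptor forms the probe is listed for. The Ntrk2 probe shared by both forms stands at -0.66 and the full-length one at -0.02, while the 4 Ntrk3 probes lie between -0.18 and 0.03; with spike-in scaling the full-length Ntrk2 probe and the last 2 Ntrk3 probes lie above 0.

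Markers of central nervous tissue differed between the arrays as well. Of 9 measured markers of central glia, such as astrocytes and oligodendrocytes, 8 were below 0 and 4 at least 2-fold lower, with a median log2 ratio of -0.80. Among all measured genes, 52.5% were below 0 and 1.25% at least 2-fold lower. The levels of the measured markers were averaged over each gene's measured probes and summed, only to set the same probes side by side on the arrays. The sum was 1862 after noise and 3609 at baseline. Aldoc alone made up most of it, at 1336 after noise and 2785 at baseline. The marker above 0 was Slc1a3, at 0.10. The measured markers of central neurons were below 0 in 8 of 8 genes, 6 of them at least 2-fold lower, with a summed level of 197 and 975. The other 3 markers of these lists, Slc6a5, Slc6a11 and Opalin, passed the background test at baseline and not after noise. The part of such tissue in the Ntrk2 difference was not tested. In a bulk sample, fewer cells of a type and less RNA per cell cannot be told apart.

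Ngfr, the p75 receptor that binds every neurotrophin and their precursors, was the lowest member gene. It was at 424 after noise and 586 at baseline (processed signals of 1340 and 1631), 1.38-fold lower, a log2 ratio of -0.47 ± 0.20, and 7.76% of measured genes lay at or below it. In nerve, Schwann cells are a known site of this receptor, and markers of Schwann cells did not differ in the same way: 5 of 9 were above 0, with a median of 0.01 and summed levels of 6280 after noise and 6411 at baseline. In that list the myelin gene Mbp, which central oligodendrocytes also express, was at -0.44. Under the 10 processing alternatives Ngfr ran from -0.48 to -0.29.

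Ret, the signalling receptor of the GDNF family, was the only receptor above 0. Its probe was at 84.7 after noise and 70.2 at baseline (processed signals of 268 and 195), 1.21-fold higher, a log2 ratio of 0.27 ± 0.20. Ret and its ligand Gdnf were thus the 2 members higher after noise, Ret at percentile 86.6 of measured genes, each by 1 measured probe. Under the 10 processing alternatives both stayed above 0, Ret from 0.22 to 0.44 and Gdnf from 0.16 to 0.78.

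Ligands and receptors did not separate. The median log2 ratio was -0.21 for the 4 ligands and -0.22 for the 4 receptors, and in each class 3 genes were below 0 and 1 above. The split that the values show runs instead between the neurotrophin genes, 6 of 6 below 0 (Ntrk3 above 0 with spike-in scaling), and the Gdnf and Ret pair, a grouping made after the values were seen. With spike-in scaling the medians were -0.03 and -0.04.

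**Figure D4:**
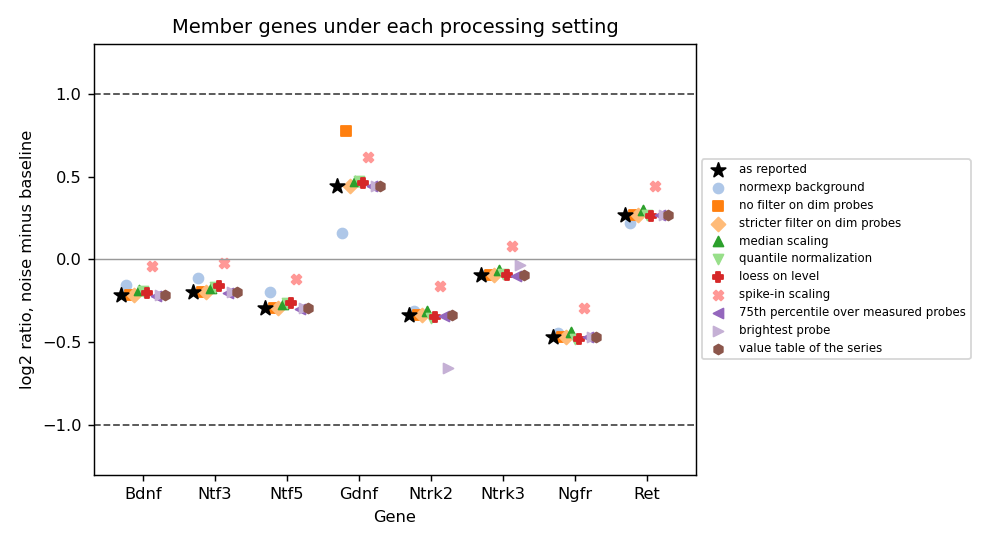
Log2 ratio of the 8 member genes as reported (black stars) and under 10 processing alternatives; dashed lines mark 2-fold. No gene reaches 2-fold in any setting, and Ntrk3 with spike-in scaling (0.08) is the only value on the other side of 0 from the reported one.

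Other receptors and ligands of the same families were likewise under 2-fold. Of 11 further neurotrophin ligand and receptor genes, all measured, 4 were above 0 and 7 below, with a median of -0.14, or 0.04 with spike-in scaling. Sorcs3, a sorting receptor related to sortilin, was lowest at -0.44 and Sorcs2, a partner of p75NTR for precursor neurotrophins, highest at 0.16, though at -0.01 with the normexp background. Of 8 genes of other GDNF family ligands and co-receptors, 6 were measured, 3 on each side of 0, with a median of -0.01. Gfra3, the artemin co-receptor, was highest at 0.29 and Nrtn, the ligand neurturin, lowest at -0.18, while Artn, the ligand artemin, was at 0.28. The Gdnf co-receptor gene Gfra1 was at 60.6 and 59.9, a log2 ratio of 0.02. Pspn and Gfral did not pass the background test in either group.

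Among enzymes and inhibitors of neurotrophin precursor processing, 6 of 11 measured genes were above 0 and 5 below. On the higher side 1 was past 2-fold, beside 0.611% of all measured genes. The list median was 0.00, with the convertase gene Furin at 0.06, the plasminogen activator gene Plat at -0.11 and Mmp7, a protease of precursor neurotrophins, lowest at -0.36. Plg, the plasminogen gene, passed the background test at baseline only and was at least 1.47-fold higher there, a bound set by the dimmest signal well above background after noise.

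The 24 adaptor genes that pass on Trk and Ret signals were all measured, with a median of -0.06 (0.12 with spike-in scaling), 11 above 0 and 13 below. Dok6, a Ret adaptor, was the only one of the 24 past 2-fold, beside 1.86% of all measured genes. It was at 3.41 after noise and 8.88 at baseline, 2.60-fold lower. With the normexp background it was at -0.44, and with the stricter filter it was not measured. Plcg1, the phospholipase that binds activated Trk receptors, was highest at 0.57, with its 3 probes between 0.51 and 0.90. The 10 adaptor genes of p75NTR were at a median of 0.08 with none past 2-fold. There the kinase gene Ripk2 was highest at 0.91, from a dim probe that was at 0.05 with the normexp background and past 2-fold with quantile normalization (1.01) and spike-in scaling (1.09), and Ndn, which encodes necdin, was lowest at -0.41.

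Genes that Trk signalling is known to induce, and that many other stimuli induce as well, lay higher. Of 14 measured genes 11 were above 0, with a median of 0.59, beside 47.5% and a median of -0.01 for all measured genes. Past 2-fold were 2 on the higher side and 1 on the lower, beside 0.611% and 1.25% of all measured genes. The immediate early gene Fos was at 268 after noise and 128 at baseline, 2.09-fold higher, and Npy, which encodes neuropeptide Y, at 37.1 and 18.5, 2.00-fold higher. With the normexp background Fos was at 0.99 and Npy at 0.56 in log2 ratio, both under 2-fold. Npy, at the edge of the size rule, was also just under it with scaling to the 75th percentile over measured probes, where 2 genes of the list were past 2-fold. Egr1 (0.94) and Junb (0.90), which encode transcription factors, were just under 2-fold, and past it with spike-in scaling (1.11 and 1.08). With that scaling 5 of the 14 genes were past 2-fold, beside 301 higher and 217 lower among 26533 measured genes. It also put 73.4% of all measured genes above 0. Arc, a gene of neuronal activity and a known target of Bdnf, went the other way, at 30.6 after noise and 80.3 at baseline, 2.62-fold lower. Vgf, another known neurotrophin target, was at -0.01, or 0.17 with spike-in scaling. Like Arc, the measured markers of central neurons were all below 0. The part of such tissue in the Arc difference was not tested.

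**Figure D5:**
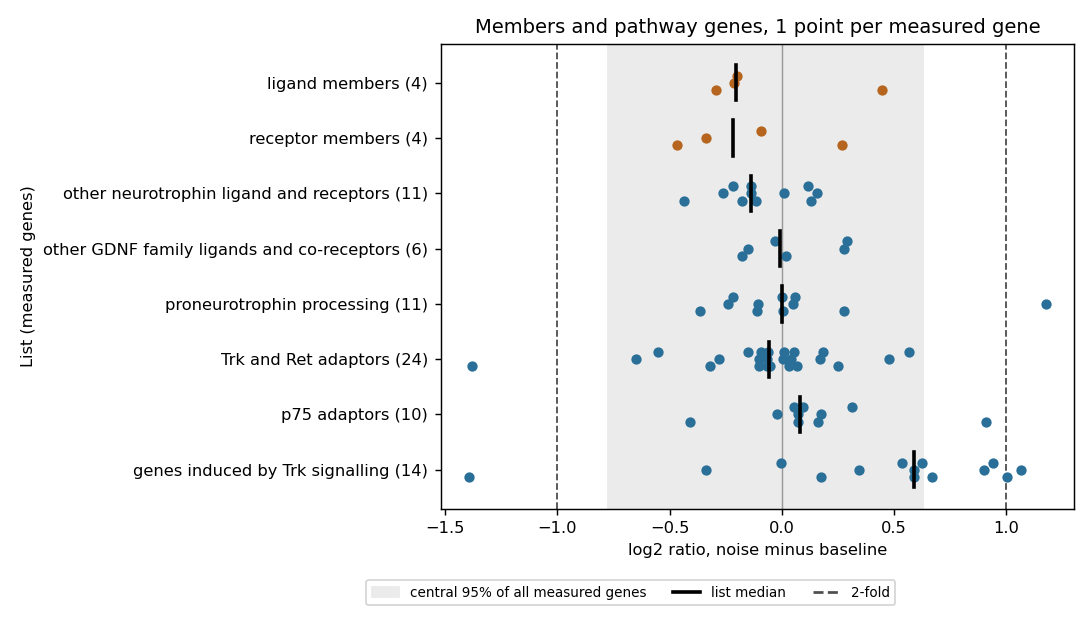
Log2 ratio of each measured gene, 1 point per gene, in the ligand and receptor members (brown) and 6 pathway lists (blue), with the number of measured genes in brackets; black bars are list medians, the grey band the central 95% of all measured genes and dashed lines 2-fold. The list of genes induced by Trk signalling has a median of 0.59, while those of the other lists lie between -0.22 and 0.08.

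The markers of cochlear cells were present on both arrays. All 9 hair cell, 9 supporting cell, 9 stria and lateral wall and 12 spiral ganglion and peripheral neuron markers were measured, with medians of 0.07, 0.23, 0.33 and 0.07. Of these lists only that of neurons had a member past 2-fold, Th at 1.31, the median of its 2 probes. These were at 0.78, under 2-fold, and at 1.85. Markers of tissues other than the inner ear were lower after noise: 10 of 10 skeletal muscle markers were below 0 with a median of -0.97 (summed level 828 after noise and 1583 at baseline), and 8 of 8 adipocyte markers with a median of -1.46 (1436 and 5186). Bone and cartilage markers had a median of 0.08. The part of these tissues in the values of Bdnf, Ntf3, Ntf5 and Ngfr was not tested. Of all measured genes, 162 were at least 2-fold higher and 332 lower, so that 32.8% of those past 2-fold were higher, and with spike-in scaling 58.1% were.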

How the data were processed

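The deposited data are a 1-colour intensity for every spot. Per the file headers, Agilent Feature Extraction 11.5.1.1 made it, with spatial and multiplicative detrending and surrogate values for the dimmest spots. Both arrays shared 1 slide and 1 scan. The deposited table of the authors' own log2 values had column medians of -2.81 (noise) and -2.79 (baseline). They equalled log2 processed signal minus the array's 75th percentile, the scale used here, with no centring per gene.

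Spots with outlier flags were left out (60 on the noise and 58 on the baseline array), repeat spots were averaged in log2, and 56604 probes remained. A gene was the median log2 ratio of its measured probes. The members, the 6 pathway and 10 marker lists and the alternatives were chosen with earlier results of these data known. In each pathway list, genes past 2-fold and those with the highest and lowest log2 ratio were named; a few others were named after their values were seen. The gene step was tested on simulated data. Python 3.11.15 and limma 3.58.1 (R 4.3.3) were used; the number of arrays limits the precision. Array gene names can be old. Lists were described, not tested. Some listed genes are counted in their lists and not reported here by name.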

Additional observations from a re-analysis of the deposited data

How the results depend on the processing

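The 10 alternatives changed the background correction (normexp, offset 50), the filter on dim probes, the scaling (median, quantile, loess, 75th percentile over measured probes, spike-in probes), the probe chosen for a gene, or the source (the value table). In each of them 0 of 8 members were past 2-fold, and the ligand and receptor medians moved by less than the SD of 0.27 between probes of a gene. The Ntrk2 probe gap was 0.56 to 0.64. The counts of all genes at least 2-fold higher and lower were 56 and 74 with the normexp background, 672 and 1296 without the filter on dim signal, 103 and 154 with the stricter filter (the 25th percentile) and 301 and 217 with spike-in scaling; the first compresses dim signal, the filters change how many genes are counted, and spike-in scaling adds the same 0.17 to every log2 ratio. Before scaling, noise minus baseline ran from -0.20 to 0.40 in log2 over the 8 spike-in probes. No paired analysis was possible because there was 1 array in a group, and no replicate could be left out.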

Other observations

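A probe that the array names only by a clone, AK051526, lies 11.4 kb upstream of the Ntrk2 probe for both receptor forms and on the same strand, at chr13:58968140-58968199 on mm9. It was at 5.45 after noise and 10.0 at baseline, a log2 ratio of -0.88, from a dim signal of 17.2 and 27.9. It was singled out after its value was seen among all probes between a member's probes or within 20 kb of them, and whether it belongs to an Ntrk2 transcript was not tested. A probe on the opposite strand that lies between the 2 Ntrk2 probes, for 4930415C11Rik, was at -0.06.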
